A study of Mus musculus with 9 samples.

Results

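The transcripts described here are those of 8 genes of proline and glutamine metabolism, Prodh, Aldh4a1, Aldh18a1, Pycr1, Oat, Glul, its pseudogene Glns-ps1 and Glud1, among 35006 gene symbols in the count tables. They were picked by symbol, with their response to diet in these data already known, so that their differences between diets are given as a description, without p-values. All 8 passed the filter on low counts, as did 15447 genes in all. The RNA was that of CD34+alpha6+ hair follicle stem cells, which lie in the bulge, purified by cell sorting from C57BL/6J mice. Mice were housed singly and ate either without limit (ad libitum, AL, 5 libraries) or each day 70% of what AL mice matched for body weight and gender ate (dietary restriction, DR, 4 libraries). Cells of 3 mice were pooled per group; the labels do not say whether each library had a pool of its own, so errors and p-values measure the spread between these libraries, which may be partly technical. The labels name no allele, age, irradiation, hair cycle stage or time on diet for either group, and list mice from more than 1 supplier and facility without saying which library came from which.

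Proline and glutamine both connect to glutamate. Proline is broken down in mitochondria: proline dehydrogenase (Prodh) makes pyrroline-5-carboxylate and passes electrons to the respiratory chain, and the dehydrogenase Aldh4a1 turns that intermediate into glutamate. Synthesis runs the other way, with Aldh18a1 making the intermediate from glutamate and Pycr1 reducing it to proline, while ornithine aminotransferase (Oat) links the same intermediate to ornithine. Glutamine synthetase (Glul) adds ammonia to glutamate, glutaminases remove it, and glutamate dehydrogenase (Glud1) feeds glutamate to the citric acid cycle. Glul is a textbook glucocorticoid-responsive gene, and the proline synthesis genes are known targets of the amino acid stress factor Atf4. In skin, proline is a main building block of collagens and of cornified envelope proteins.

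Transcripts for making glutamine and for the first step of proline breakdown were far more abundant in DR, those for making proline far less abundant, and those of Oat and Glud1 near the same level. By the edgeR quasi-likelihood test at an adjusted p under 0.05, 4 of the 8 genes were higher in DR and 2 lower, beside 40.7% of all tested genes called in either direction (19.0% higher and 21.7% lower). For 3 of the 8 every DR library lay above every AL library, beside 15.9% of all tested genes, and for 2 every one lay below, beside 17.0% (32.9% in all). The median log2 fold change (DR against AL) of the 8 was 0.29, beside -0.03 over all tested genes. Nothing is read from these counts, because the 8 were chosen with this contrast known.

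Glns-ps1 is a processed, intronless copy of Glul, and its reads bear on how Glul was counted. The GENCODE M21 transcripts of both were aligned; that annotation belongs to GRCm38, a later assembly than the mm9 build the submitters name. Of 1114 aligned bases 1090 were identical (97.8%), with 24 differing bases and 12 bases of gaps. Among coding stretches of 60 bases over an exon junction, one with the most differences is shown, around the junction after base 604 of Glul, since it shows how few letters tell them apart, with the 3 differing bases in capitals and the junction after base 40 of the stretch:

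Glul: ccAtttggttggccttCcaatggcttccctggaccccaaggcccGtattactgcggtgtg

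Glns-ps1: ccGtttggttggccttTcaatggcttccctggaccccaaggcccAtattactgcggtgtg

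Of 2742 windows of 51 bases in the Glul transcript, the read length of the study, 299 (10.9%) were found whole in Glns-ps1, so such reads cannot be assigned. A further measure concerns reads that cross an exon junction, which the intronless copy can take without a gap: 228 windows (8.32% of all) crossed a junction and fit Glns-ps1 with at most 2 mismatches. Counting windows anywhere in the transcript, 857 (31.25%) fit it with at most 2 mismatches. These windows describe the sequences; how the authors' alignment placed such reads was not tested. In the data, Glns-ps1 held 6.76% to 8.72% of the reads of the pair in AL libraries and 7.73% to 8.21% in DR libraries. The mean share over the 5 AL libraries was 7.87% (SD 0.80) and over the 4 DR libraries 8.01% (SD 0.21), while the summed reads ran from 808 to 25257 per library. The groups overlapped in this share, and the part that Glul reads have in the Glns-ps1 counts was not tested.

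**Figure D1:**
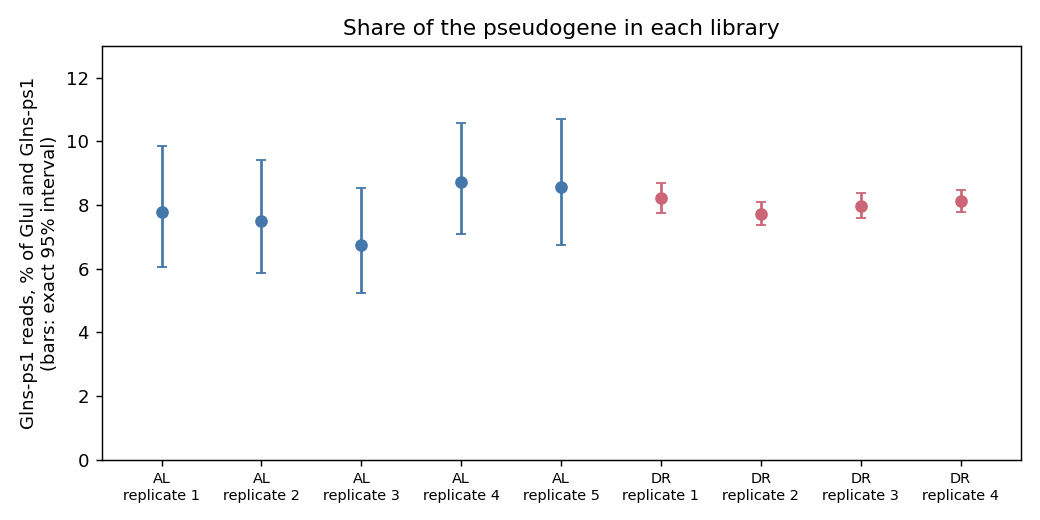
Percentage of reads assigned to Glns-ps1 among the reads of Glul and Glns-ps1 in each of the 9 libraries (AL blue, DR red), with exact 95% binomial intervals that cover counting error only. The shares lie between 6.76% and 8.72%, and the AL and DR libraries overlap.

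Glul, glutamine synthetase, stood at 26.9, 22.8, 29.6, 33.8 and 28.1 CPM (counts per 1000000, after TMM scaling of library sizes) in AL replicates 1 to 5, and at 442, 572, 629 and 748 CPM in DR replicates 1 to 4. Every DR library was above every AL library, with a wide gap between the highest AL and the lowest DR library. The log2 fold change of Glul was 4.40 (SE 0.17), a 21.2-fold difference, ranked 49 by size among the 15447 tested genes. Glns-ps1 followed, at 1.85 to 3.23 CPM in AL and 39.6 to 66.2 CPM in DR, a log2 fold change of 4.43 (SE 0.19). With the counts of both summed as 1 gene the log2 fold change of Glul was 4.41. For both genes AL replicate 4 was the highest AL library, and DR replicates 1 and 4 the lowest and highest DR libraries. Glia are known for high Glul, and the summed level of 6 Schwann and glia markers was likewise higher in every DR library (33.2 to 38.4 CPM) than in any AL library (20.7 to 31.7 CPM). That sum is mostly Mbp, the 1 called higher (17.2 ± 4.64 and 31.8 ± 1.54 CPM, SD, n = 5 and 4), while S100b was among those called lower. Its part in the level of Glul was not tested.

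**Figure D2:**
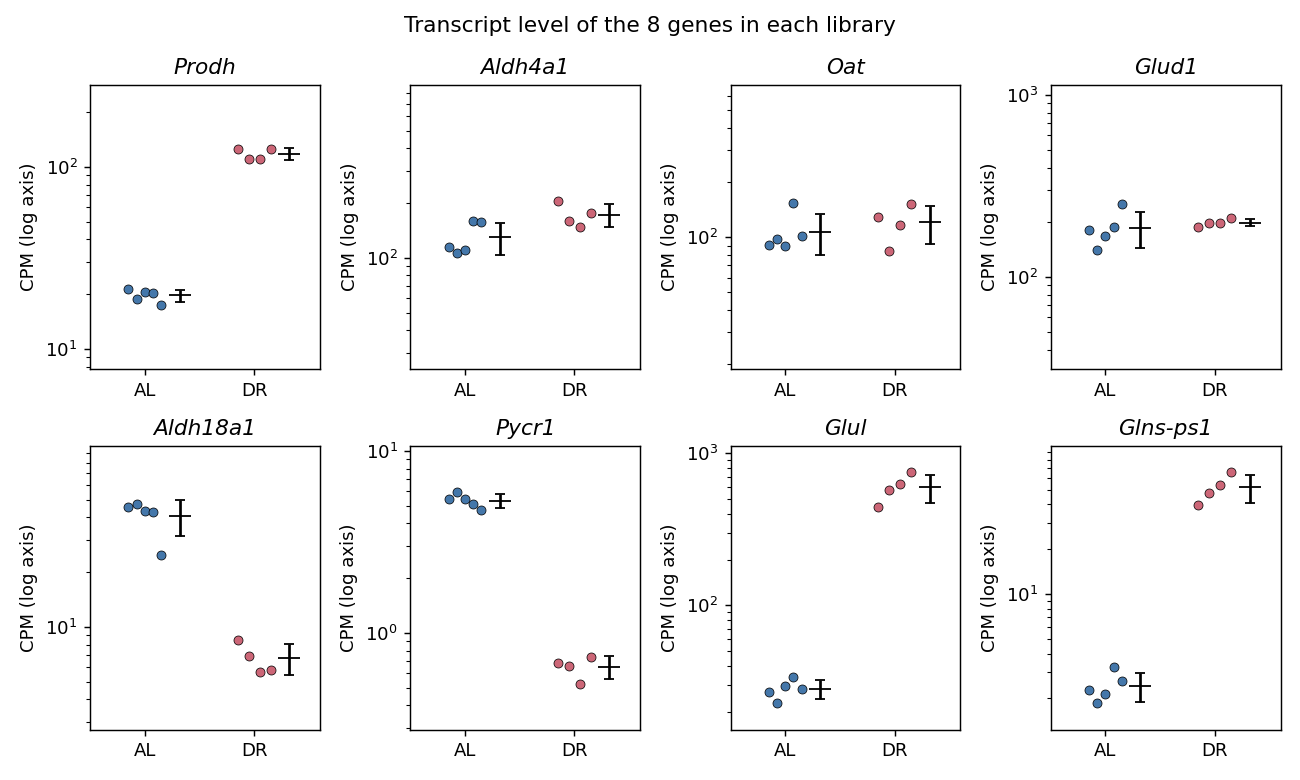
CPM of each of the 8 genes in the 5 AL (blue) and 4 DR (red) libraries, on log axes, with the mean ± SD at the right of each group. Glul, Glns-ps1 and Prodh are higher and Aldh18a1 and Pycr1 lower in every DR library, while the groups overlap for Aldh4a1, Oat and Glud1.

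Prodh, the first enzyme of proline breakdown, stood at 21.4, 18.9, 20.5, 20.4 and 17.5 CPM in AL replicates 1 to 5 and at 124.9, 110.3, 110.4 and 125.9 CPM in DR replicates 1 to 4. The groups were far apart and tight, with a coefficient of variation of 7.81% in AL and 7.39% in DR. The log2 fold change was 2.58 (SE 0.09), 5.98-fold. Aldh4a1, the next enzyme, was at 115, 106.8, 110.7, 159.7 and 156.6 CPM in AL and at 205, 160.3, 148.3 and 175.7 CPM in DR. AL replicates 4 and 5 lay among the DR libraries, so the groups overlapped. Its log2 fold change was 0.41 (SE 0.15). The edgeR call of Aldh4a1 was lost when any 1 of AL replicates 1, 2 and 3 or DR replicates 1, 2 and 4 was left out (log2 fold change 0.32 to 0.44), which leaves 3 genes called higher.

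For proline synthesis, Aldh18a1, which makes pyrroline-5-carboxylate from glutamate, stood at 45.5, 47.6, 43.4, 42.9 and 24.8 CPM in AL replicates 1 to 5 and at 8.52, 6.94, 5.68 and 5.80 CPM in DR replicates 1 to 4. AL replicate 5 was well below the other AL libraries and still above every DR library. The log2 fold change of Aldh18a1 was -2.60 (SE 0.21), 6.06-fold lower in DR, and -2.74 without AL replicate 5. Pycr1, which completes proline, was at 5.42, 5.98, 5.43, 5.11 and 4.74 CPM in AL and at 0.683, 0.658, 0.526 and 0.742 CPM in DR. Its log2 fold change was -3.02 (SE 0.18), 8.12-fold lower, from raw counts of 126 to 220 per AL library and only 14 to 23 per DR library. AL replicate 5 was the lowest AL library for both synthesis genes, and also for Prodh.

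Like the 2 synthesis genes, the summed level of 10 proliferation genes was lower in every DR library than in any AL library. The sum was 93.9 CPM in AL replicate 5, 368 to 713 CPM in the other AL libraries and 11.4 to 37.3 CPM in DR. All 10 genes were called lower. Within DR the order differed, as replicate 1 had the lowest sum and the highest Aldh18a1 (8.52 CPM). The part of proliferation in the levels of Aldh18a1 and Pycr1 was not tested. In these bulk libraries fewer cells with a transcript and less of it per cell cannot be told apart.

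Oat, which links ornithine to the same intermediate, did not pass the test. It was at 90.1, 97.8, 90.0, 154 and 101 CPM in AL replicates 1 to 5 and at 128.6, 84.0, 117 and 153 CPM in DR replicates 1 to 4, with a log2 fold change of 0.18 (SE 0.19). The groups overlapped, and AL replicate 4 was the highest of all 9 libraries. Glud1, which opens glutamate to the citric acid cycle, was at 180.6, 141, 168, 189 and 252 CPM in AL and at 189, 198, 198.5 and 211 CPM in DR. It did not pass either, with a log2 fold change of 0.10 (SE 0.14). Its spread was uneven: the coefficient of variation was 22.0% over AL libraries and 4.61% over DR libraries.

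**Figure D3:**
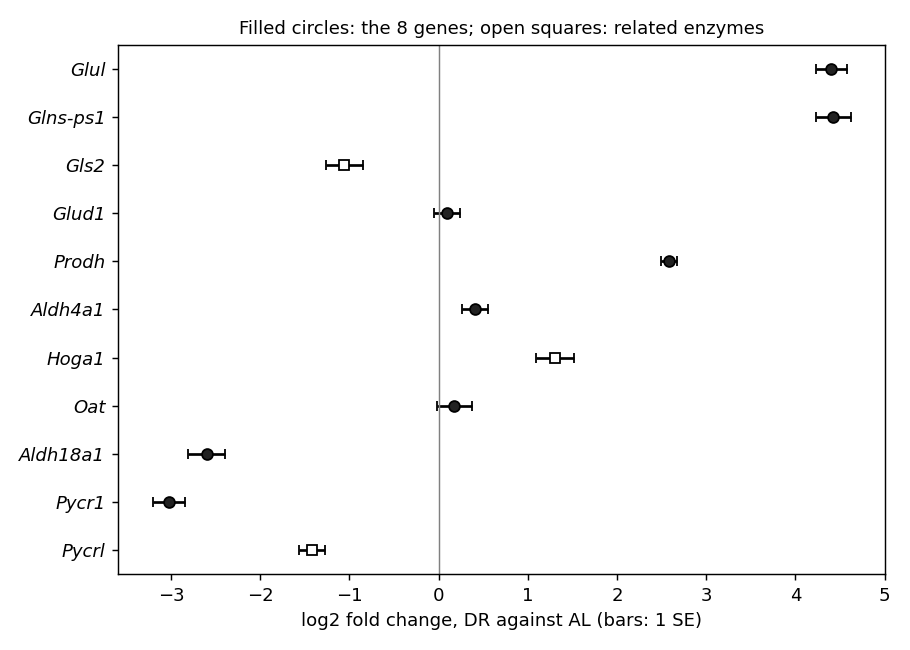
Log2 fold change (DR against AL) with 1 SE for the 8 genes (filled circles) and for the related enzymes Gls2, Hoga1 and Pycrl (open squares). These were picked from the other pathway lists, were all called, and do not stand for those lists. Glul, Glns-ps1 and Prodh lie at 2.58 to 4.43, Aldh18a1 and Pycr1 at -2.60 and -3.02, and Glud1 and Oat near 0.

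Levels were compared per length of the longest coding GENCODE transcript, or for Glns-ps1 of its pseudogene transcript (CPM per kb). Their order changed with diet. In AL Glud1 led with 54.9 ± 12.1 CPM per kb, followed by Oat (49.6 ± 12.6) and Aldh4a1 (38.4 ± 7.72), and these neighbours overlapped between libraries. Aldh18a1 (11.6 ± 2.59), Glul (10.1 ± 1.43) and Prodh (8.26 ± 0.645) formed a lower, likewise overlapping set, and Glns-ps1 (2.17 ± 0.473) and Pycr1 (1.83 ± 0.157) came last (SD, n = 5). In DR Glul was first with 214 ± 45.5 CPM per kb, apart from all others. Glud1 (58.7 ± 2.71), Oat (56.0 ± 13.3), Aldh4a1 (50.9 ± 7.20), Prodh (49.4 ± 3.65) and Glns-ps1 (46.55 ± 10.03) overlapped from neighbour to neighbour, so the level of Prodh lay beside that of the next enzyme of its pathway. Aldh18a1 (1.91 ± 0.374) and Pycr1 (0.224 ± 0.031) stood apart at the bottom (SD, n = 4). The transcripts' lengths come from an annotation later than the study's.

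Ratios of enzymes that work against each other do not depend on how libraries are scaled. The read ratio of Prodh to Pycr1, breakdown over synthesis, was on the log2 scale 1.98, 1.66, 1.92, 1.99 and 1.88 in AL replicates 1 to 5 and 7.51, 7.39, 7.71 and 7.41 in DR replicates 1 to 4. The difference was 5.62, 49.2-fold, with an SD of 0.14 in AL and 0.15 in DR. For the partner pair, Aldh4a1 over Aldh18a1, the log2 ratio was 1.34, 1.17, 1.35, 1.90 and 2.66 in AL and 4.59, 4.53, 4.71 and 4.92 in DR, a difference of 3.00. AL replicate 5 came nearest to the DR libraries in that pair but not in Prodh over Pycr1.

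The log2 read ratio of Glul, which uses glutamate to make glutamine, to Glud1, which feeds glutamate to the citric acid cycle, was -2.75, -2.63, -2.50, -2.49 and -3.16 in AL and 1.23, 1.53, 1.66 and 1.83 in DR. It was negative in all 5 AL and positive in all 4 DR libraries, a difference of 4.27; read counts are not corrected for length.

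**Figure D4:**
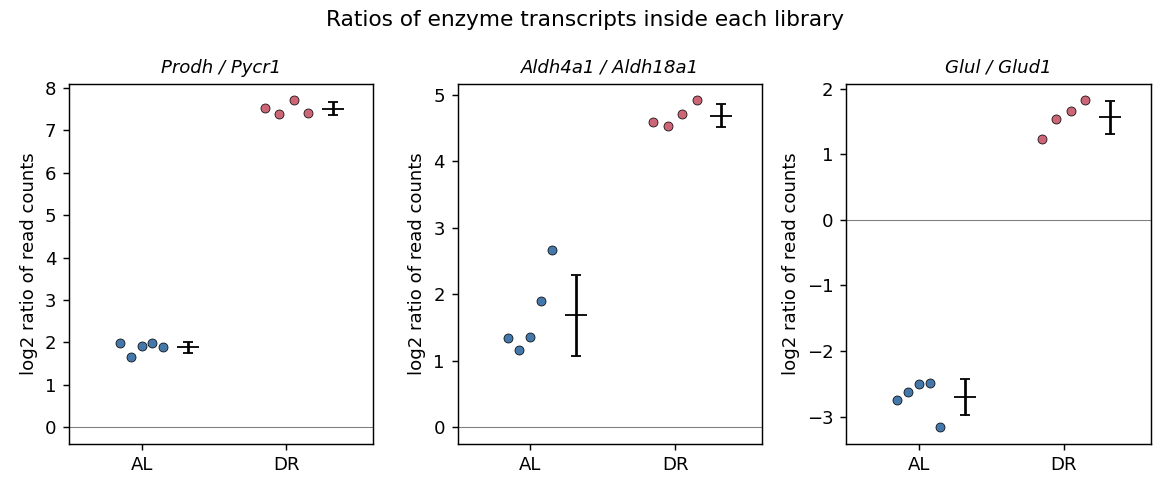
Log2 ratios of read counts inside each library for 3 pairs of enzymes, with the mean ± SD at the right of each group (AL, n = 5, blue; DR, n = 4, red). No pair of groups overlaps; the Prodh to Pycr1 ratio differs most, by 5.62, with the tightest groups.

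Sequences before the transcription start were read for the 7 genes that have an entry in the RefSeq promoter table (GRCm38.p6), 250 bases each; all but Glns-ps1 matched. They are shown for the 3 of these with the largest differences in level, Glul on the higher side and Pycr1 and Aldh18a1 on the lower. Both strands were searched for the glucocorticoid receptor motif AGAACA, the forkhead site GTAAACA, the ATF4 composite site TGATGNAA, the E-box CACGTG, the TATA box TATAAA and the CCAAT box CCAAT, and matches are in capitals.

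Glul, chr1:153899679-153899928, + strand: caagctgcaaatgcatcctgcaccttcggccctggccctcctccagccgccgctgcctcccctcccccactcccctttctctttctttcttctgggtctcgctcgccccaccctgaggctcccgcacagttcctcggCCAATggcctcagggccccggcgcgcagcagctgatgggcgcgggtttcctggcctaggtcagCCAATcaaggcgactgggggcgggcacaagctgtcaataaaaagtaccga

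Pycr1, chr11:120643749-120643998, - strand: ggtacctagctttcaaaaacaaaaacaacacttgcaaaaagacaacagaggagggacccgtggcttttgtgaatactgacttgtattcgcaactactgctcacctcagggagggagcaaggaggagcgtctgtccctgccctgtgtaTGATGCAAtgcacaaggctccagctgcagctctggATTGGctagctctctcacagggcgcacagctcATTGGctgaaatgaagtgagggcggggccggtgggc

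Aldh18a1, chr19:40588464-40588713, - strand: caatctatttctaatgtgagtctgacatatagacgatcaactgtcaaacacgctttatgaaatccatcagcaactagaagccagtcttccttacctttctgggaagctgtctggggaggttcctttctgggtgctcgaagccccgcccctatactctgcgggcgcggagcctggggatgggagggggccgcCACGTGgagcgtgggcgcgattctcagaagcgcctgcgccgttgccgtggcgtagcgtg

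Pycr1 held the ATF4 composite letters TGATGCAA, beginning 103 bases before the start, which 3.45% of the 32851 promoter windows hold, and 2 CCAAT boxes. Aldh18a1 held an E-box beginning 59 bases before the start, as do 6.02% of all windows. Glul held 2 CCAAT boxes, which 33.8% of all windows hold; Aldh4a1 had 3 and Oat 2, and the windows of Prodh and Glud1 had no match to any of the 6 motifs. The glucocorticoid receptor motif, found in 16.1% of all windows, the forkhead site (3.17%) and the TATA letters (12.4%) were in none of the 7 windows. These are matches of letters in a short window and no measure of binding.

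Of 93 further pathway genes, 78 were tested and 36 passed (46.2%, beside 40.7% of all tested genes), 10 higher and 26 lower, with a median log2 fold change of -0.11 beside -0.03. The share called in either direction was thus near the background. Lower calls outnumbered higher ones by more than among all tested genes, of which 19.0% were higher and 21.7% lower. Without AL replicate 1 and DR replicates 1 and 2 together, 10 were higher and 17 lower. Nothing is read from this excess, because the lists were written with earlier results of these data known. The 93 further pathway genes make up the 7 lists described next. Regulators are a list apart.

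Gls2, the liver-type glutaminase, which releases ammonia from glutamine, was at 2.48 to 3.84 CPM in AL and 1.14 to 1.77 CPM in DR and fell by 1.06 on the log2 scale (SE 0.21, edgeR adjusted p = 0.0023).

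Pycrl (now Pycr3), the cytosolic enzyme for the last step of proline synthesis, was at 15.7 to 20.5 CPM in AL and 5.26 to 7.91 CPM in DR and fell by 1.42 (SE 0.15, edgeR adjusted p = 6.2e-05). Of the 14 tested genes in this list of further proline and hydroxyproline enzymes 7 were called lower and 1 higher. Those not called went both ways. Across the alternatives run, 4 to 9 were called lower. The collagen prolyl 3-hydroxylase genes Leprel2 (-1.15, adjusted p = 7.4e-05) and Lepre1 (-0.74, adjusted p = 4.6e-04) fell, as did Pepd (-0.59, adjusted p = 0.0040), the prolidase that frees proline from dipeptides. The 1 called higher was Hoga1, which breaks down hydroxyproline, at 5.60 to 10.8 CPM in AL and 12.7 to 20.9 CPM in DR (1.30, SE 0.21, adjusted p = 8.2e-04). The call of Pepd was lost without AL replicate 1 and DR replicates 1 and 2 together (adjusted p = 0.052). Prodh2, the hydroxyproline oxidase, was near 0 in every library.

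Of 9 tested glutamate transaminases, which move the amino group of glutamate, 2 were higher and 4 lower. Psat1, of serine synthesis, was at 19.1 CPM in AL replicate 5, 36.5 to 44.5 CPM in the other AL libraries and 8.09 to 12.9 CPM in DR, and fell by 1.80 (SE 0.24, edgeR adjusted p = 2.8e-04). Gpt, an alanine transaminase, fell by 1.05 (adjusted p = 8.1e-04) and Ccbl1 (now Kyat1) by 0.45 (adjusted p = 0.0039), while Ccbl2 (now Kyat3) rose by 1.28 (adjusted p = 1.8e-04); both of the last are kynurenine and glutamine transaminases. Gpt2, the mitochondrial alanine form, did not pass (-0.03, SE 0.16). The aspartate forms Got1 (0.27, adjusted p = 0.044) and Got2 (-0.30, adjusted p = 0.030) passed by little. The call of Got1 was lost without any 1 of AL replicates 1, 2, 3 and 5 or DR replicates 1, 3 and 4 (adjusted p 0.074 to 0.094). Scaling by library size only, upper-quartile scaling and no filter each lost the Got1 call too (edgeR adjusted p 0.0785 to 0.129). The call of Got2 was lost without AL replicate 1, 2 or 3 or DR replicate 1 or 2 (0.057 to 0.084). Without AL replicate 1 and DR replicates 1 and 2 together, both calls were lost (edgeR adjusted p = 0.13 for Got1 and 0.34 for Got2).

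Among 14 genes of the amidotransferase list, most of which spend glutamine's amide nitrogen, 3 were higher and 5 lower. The lower ones include Cps1, which takes free ammonia instead. Its level was 0.038 to 4.43 CPM in AL and 0.030 to 0.144 CPM in DR. Cad, which opens pyrimidine synthesis, was at 72.7 to 148.5 CPM in AL and 41.8 to 59.5 CPM in DR and fell by 1.19 (SE 0.18, edgeR adjusted p = 5.9e-04). Asparagine synthetase (Asns) fell by 0.70 (SE 0.11, adjusted p = 5.0e-04), with no overlap of the groups. The CTP synthases rose, Ctps2 by 1.08 (23.0 ± 2.53 to 48.7 ± 6.07 CPM, SD, n = 5 and 4; edgeR adjusted p = 5.6e-05) and Ctps by 0.40 (adjusted p = 0.0040).

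**Figure D5:**
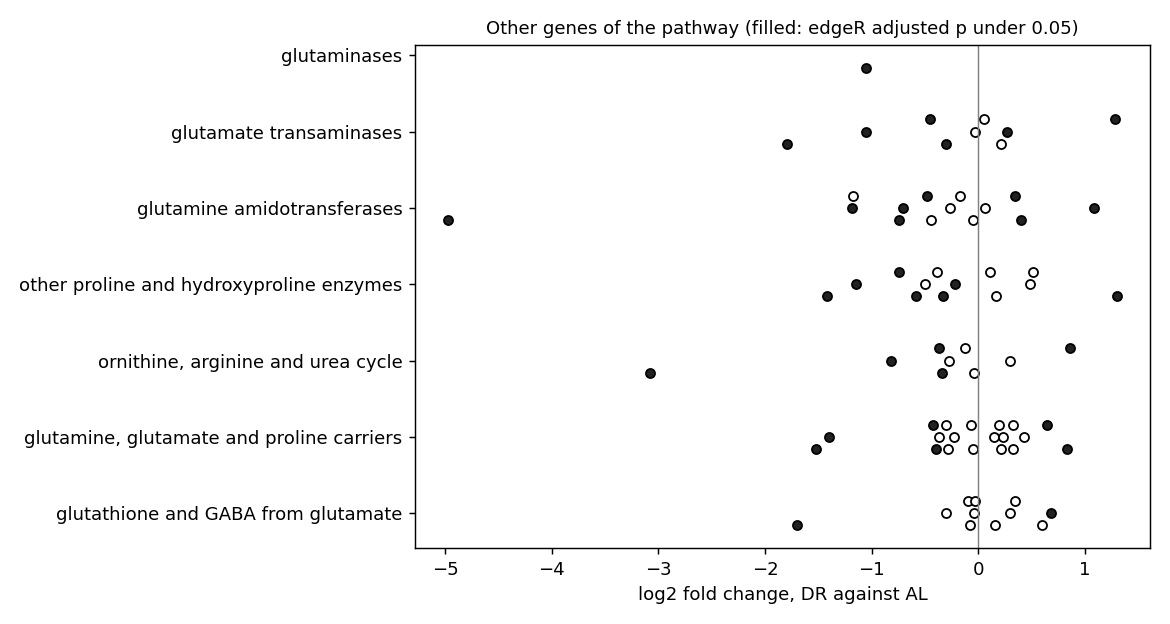
Log2 fold change (DR against AL) of tested further pathway genes by list, 1 point a gene, filled where edgeR's adjusted p is under 0.05; genes not reported here are left out. The values run from -4.97 for Cps1 to 1.30 for Hoga1, and Cps1 and Gatm (-3.08), both at a mean CPM under 2 in either diet and near 0 in DR, so that their size rests on few reads, lie farthest to the left.

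Of 19 tested carriers of glutamine, glutamate and proline, 2 were higher and 4 lower. Slc38a2, the glutamine and proline carrier known to respond to amino acid shortage, was at 3691 to 6078 CPM in AL and 4298 to 5880 CPM in DR and did not pass (0.15, SE 0.19, edgeR adjusted p = 0.57). Neither did Slc1a5, the main glutamine importer of many cells (0.33, SE 0.24, adjusted p = 0.30). The lysosomal amino acid sensor Slc38a9 (0.83, adjusted p = 7.5e-04) and Slc3a2 (0.64, adjusted p = 8.8e-04), the shared heavy chain of several exchangers, rose. Slc38a4 fell by 1.52 (adjusted p = 0.0040), and the mitochondrial carriers Slc25a13 by 0.43 (adjusted p = 0.0046) and Slc25a22, which imports glutamate, by 0.40 (adjusted p = 0.020). The call of Slc25a22 was lost without AL replicate 2, DR replicate 3 or DR replicate 4 (0.052 to 0.061). Without AL replicate 1 and DR replicates 1 and 2 together, Slc25a13 and Slc25a22 lost their calls (edgeR adjusted p = 0.062 and 0.0501).

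In the list of ornithine, arginine and urea cycle genes 1 of 9 was higher and 4 lower. Odc1, which commits ornithine to polyamines, fell by 0.82 (SE 0.21, edgeR adjusted p = 0.010), and the antizyme gene Oaz2 by 0.37 (adjusted p = 0.011; 0.095 without AL replicate 1 and DR replicates 1 and 2). The arginases Arg1 (-0.04, SE 0.27) and Arg2 (-0.13, SE 0.32), which make ornithine, did not pass. The calls of Ass1 (0.86, adjusted p = 0.027) and of the ornithine carrier Slc25a15 (-0.34, adjusted p = 0.032) were each lost without single libraries. For Ass1 these were AL replicates 1 and 3 and DR replicates 3 and 4 (0.054 to 0.083). For Slc25a15 they were AL replicates 1 and 3 and DR replicates 1, 3 and 4 (0.051 to 0.094). Slc25a15 also lost its call without AL replicate 1 and DR replicates 1 and 2 together (edgeR adjusted p = 0.098). In the list of glutathione and GABA genes 1 of 11 was higher and 1 lower, namely Gclc, the rate-limiting enzyme of glutathione synthesis (0.68, adjusted p = 0.011; adjusted p = 0.20 without AL replicate 1 and DR replicates 1 and 2), and Ggt5, named here after its value was seen. Ggt5, of glutathione breakdown, was at 0.339 to 3.88 CPM in AL and 0.301 to 0.683 CPM in DR (-1.71, SE 0.63, edgeR adjusted p = 0.049). Its call was lost without AL replicate 2, 3 or 4 or any 1 DR library (0.069 to 0.12), and in 11 of 18 alternatives in all.

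Regulators with textbook links to these enzymes were read from the same fit. The FoxO factor genes Foxo3 (1.09, SE 0.15, edgeR adjusted p = 3.0e-04) and Foxo1 (0.99, SE 0.17, adjusted p = 0.0012) rose, as did Myc (0.98, SE 0.29, adjusted p = 0.020). Atf4 did not pass (539 ± 161.5 against 473 ± 128 CPM, SD, n = 5 and 4; -0.19, SE 0.24, edgeR adjusted p = 0.56). The glucocorticoid receptor gene Nr3c1 (-0.38, adjusted p = 0.031) and Trp53 (-0.37, adjusted p = 0.028) fell slightly, and Pparg was too low to test. The call of Nr3c1 was lost without AL replicate 1 or 3 or DR replicate 1, 3 or 4. That of Trp53 was lost without AL replicate 2, 3 or 4 or DR replicate 1, 2 or 3, and that of Myc without DR replicate 1 or 4. Over the 3 genes the edgeR adjusted p was then 0.051 to 0.083. Without AL replicate 1 and DR replicates 1 and 2 together, Nr3c1 and Trp53 also lost their calls (edgeR adjusted p = 0.21 and 0.23).

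Genes with a profile like that of Glul were sought among 11455 genes of sufficient level, as the smallest root mean square difference of centred log2 CPM over the 9 libraries. Pdk4 came nearest (0.37), then Tsc22d3 (0.39), Spock2 (0.39), Best2 (0.46) and Il22ra2 (0.46), against 0.11 for Glns-ps1 and 0.93 for Prodh. Those nearest to Prodh were Arrdc3 (0.19), Lifr (0.23), Tbx2 (0.24), Abca1 (0.25) and Tnfrsf21 (0.26), and Pycr1 and Aldh18a1 differed by 0.30. The measure includes the difference between diets, so genes of like difference are favoured by it.

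Libraries held 26119459 to 33559312 gene counts, and the difference between diets was within the spread of the libraries (two-sided exact permutation p = 0.548 over 126 splits). All 12 bulge epithelium markers were detected, with summed levels of 28080 to 39050 CPM in AL and 21410 to 22900 CPM in DR (1 called higher, 5 lower). Most of that sum came from Krt5, Krt15 and Krt14, all called lower (log2 fold changes -0.91, -0.54 and -0.50), as was Sox9 (-0.38). Cd34, on which the cells were sorted, was also called lower (-1.18, SE 0.33), its mean being 1083 CPM under AL but 479 CPM under DR. The gene of the other sort marker, Itga6, was not called (-0.12, SE 0.10), and Cd200 was called higher (0.66). Whether the sorted populations were alike was not tested. Markers of other cell types were summed likewise, since muscle and fat are also known for high Glul. Muscle markers totalled at most 1.04 CPM in any library, with Myh4 at 0 in all. Adipocyte markers reached 0.565 to 11.9 CPM in AL and 3.52 to 46.8 CPM in DR, endothelial markers 2.30 to 24.3 and 6.00 to 44.6 CPM, and immune markers 2.52 to 44.0 and 10.3 to 57.0 CPM, with none of the 11 of their genes that could be tested called. The adipocyte sum is mostly Fabp4. These 3 sums were highest in DR replicates 1 and 2 and AL replicate 1. Without those 3 libraries the log2 fold change of Glul was 4.59, of Prodh 2.62, of Pycr1 -3.05 and of Aldh18a1 -2.79. That of Aldh4a1 was 0.28, and its call was lost. Fibroblast markers summed to 74.1 to 123 CPM in AL and 19.8 to 40.7 CPM in DR, mostly from the collagen genes Col1a1 and Col1a2, both called lower (log2 fold changes -3.34 and -1.40), while Pdgfra was called higher (1.07 ± 0.338 and 3.02 ± 1.85 CPM, SD, n = 5 and 4). Sebaceous markers summed to 214 to 326 and 125 to 185 CPM, nearly all from the lipid synthesis gene Fasn, which was called lower together with Awat2, while the other 4 markers were near 0. Melanocyte markers summed to 111 to 230 and 125 to 176 CPM, nearly all from Mitf (148.7 ± 50.8 and 138.6 ± 24.7 CPM), while Dct (-2.18) and Tyrp1 (-2.13) were called lower. Differentiated epidermis markers summed to 1349 to 4056 and 1436 to 4561 CPM with none called, and erythroid markers to at most 1.16 CPM with Hbb-b2 at 0. Their part in the levels of the 8 genes was not tested.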

How the data were processed

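Each of the 9 deposited tables gives raw counts, whole numbers of reads for every gene symbol, which the authors had not normalized. The submitters' processing notes name HTSeq 0.11.2, TopHat2 2.1.0, FastQC 0.11.5 and Bowtie, and the mm9 build. Which annotation, strand setting and rule for reads with several hits were used is not given in the sources used here. The kit named in the labels' protocols, TruSeq RNA v2, does not mark strand, so overlapping genes can share reads. In GENCODE M21 exons of Glul overlap Teddm2 and Mir8114, and those of Aldh4a1 overlap Gm21969; none of these 3 names has a row of its own in the tables. Each file has 6 lines that name no gene (25.9% to 30.7% of reads), left out of library sizes and tests. The 16 pairs of libraries within a diet all differed beyond sampling noise (chi-square over its degrees of freedom at least 24.6), so none was a copy of another. Each library counted as 1 sample, although this check cannot show whether each had a pool of its own.

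The test was edgeR 4.0.16 in R 4.3.3 on all genes: filterByExpr, TMM, a quasi-likelihood fit on diet, Benjamini-Hochberg adjustment over 15447 genes, threshold 0.05. SE is the log2 fold change over the square root of F. On counts simulated for 15447 genes with 200 changed, 74% of 2-fold and 100% of 4-fold changes were recovered, and 5.43% of calls were false. Far fewer genes were changed there than the 6290 called in the data. The simulated spread followed the trend over all genes rather than each gene's own, so these rates may not hold for the data. The members and lists were chosen with earlier results of these data known. Named are all members, a set of enzymes, carriers and regulators whatever their result, in each list up to 4 called genes of smallest p whose mean log2 CPM reached 1, and the 5 genes nearest to Glul and to Prodh; Cps1, Gatm and Ggt5 were named after their values were seen. Promoter sequences are from RefSeq (GRCm38.p6) and transcripts from GENCODE M21, used for sequence, exon structure and length. Alternatives were other scalings, filters and tests (DESeq2 1.42.0, limma 3.58.1), a replicate block, summing Glul and Glns-ps1, and leaving out each library. Leaving out AL replicate 1 and DR replicates 1 and 2 together was added after seeing the data. Results of some further pathway genes are not reported here.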

Additional observations from a re-analysis of the deposited data

Results flagged for a closer look

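In 4 of 70 groups of libraries checked, the most extreme library stood apart from the others of its diet by Dixon's criterion at the 95% level, which chance alone meets in about 1 of 20 groups. Aldh18a1 was at 24.8 CPM in AL replicate 5, against 42.9 to 47.6 CPM in the other AL libraries. Oat was at 154 CPM in AL replicate 4, against 90.0 to 101 CPM in the others. Got1 was at 28.0 CPM in AL replicate 4, against 22.2 to 23.2 CPM, and Pepd at 46.8 CPM in AL replicate 5, against 30.7 to 35.1 CPM.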

How the results depend on the processing

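Across the alternatives run, the log2 fold change stayed between 4.28 and 4.59 for Glul, 2.51 and 2.63 for Prodh, -3.09 and -2.92 for Pycr1 and -2.79 and -2.51 for Aldh18a1. Those of Aldh4a1 (0.28 to 0.49), Oat (0.05 to 0.35) and Glud1 (0.02 to 0.24) stayed above 0. Oat and Glud1 were called in none of the settings. Besides the single libraries named above, Aldh4a1 lost its call with upper-quartile scaling and with no filter. It also lost its call without AL replicate 1 and DR replicates 1 and 2 together. Requiring 1 CPM in every library left 1 of the 8 genes called lower, because Pycr1 was then not tested. Leaving out each library in turn gave 5 to 6 of the 8 genes called, 3 to 4 higher and 2 lower, with 7 to 12 further pathway genes higher and 22 to 27 lower, and 5176 to 6402 genes called in all. Without AL replicate 1 and DR replicates 1 and 2 together, 17 further pathway genes were lower. Deviations of same-numbered libraries correlated at 0.03 to 0.23, and 1 of 4 DR libraries correlated best with its own number. So few pairs cannot show whether same-numbered libraries shared a batch. A replicate block leaves AL replicate 5 alone in its block, where it cannot bear on the difference between diets. With a replicate block 3067 genes were called higher and 3366 lower (41.6% of those tested, beside 40.7%), the calls of Got1, Slc25a15 and Nr3c1 were lost (adjusted p 0.076 to 0.077), and the log2 fold changes of Glul and Pycr1 were 4.39 and -3.07. Pycr1, at 14 to 23 reads per DR library, is the member most limited by depth.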
